A study of Drosophila melanogaster with 3 samples.

Results

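The genes described here were 9 components of insulin and TOR growth signalling in Drosophila melanogaster, Lk6, larp, Thor, foxo, InR, S6k, Tor, Akt and chico, out of 18277 genes annotated on the main chromosomes. They were chosen by name, with earlier results of these data known, including the strong peaks at Lk6 and larp. Every reproducible peak whose summit lay in a gene or within 5 kb of it was assigned to that gene, which gave 30 of 6469 peaks. Tor is named mTor in the annotation, where it was found by its synonym, and the other members were found by symbol.

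The data came from chromatin immunoprecipitation and sequencing (ChIP-seq) of whole white prepupae, the stage at which the larva has just formed its puparium, with both sexes pooled. All 3 samples were biological replicates of 1 group, from a transgenic line carrying CG8632 (ZnT49B in the annotation) with a GFP tag at its C terminus, and an anti-GFP antibody was used. ZnT49B belongs by its name to a family of zinc transporters, and the labels name no promoter that drove the fusion. Whole animals were used, so the cell types behind a peak are unknown, and control samples were not analysed here, so dependence of a peak on the fusion protein was not tested.

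In this pathway, insulin-like peptides activate the receptor encoded by InR, which signals through the adaptor chico and a lipid kinase to the protein kinase Akt. Akt keeps the transcription factor foxo out of the nucleus, and InR and Thor are well-known targets of foxo in flies. Tor, the kinase of the TOR complexes, phosphorylates S6k and the translation inhibitor Thor, the fly 4E-BP. Lk6 is the fly Mnk kinase, which phosphorylates the cap-binding protein eIF4E, and larp is an RNA-binding protein whose mammalian relative LARP1 is controlled by TOR.

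Peaks are given from the set that passed the authors' test of the irreproducible discovery rate (IDR), called IDR peaks here. The signal is the peak caller's value in column 7 of the deposited lists, on a scale with no stated unit, and rank 1 is the strongest call of a list. The 6469 IDR peaks were the 6469 strongest calls of the list made on the replicates' pooled reads. The 3 replicate lists held 29322 to 30000 calls each, background calls included. Replicates were compared by signal, by rank and by presence among the strongest 6469 calls of each list. The number of reads is unknown, so no counting error could be given. Those strongest calls had median signals of 75.5, 47.9 and 70.3 in replicates 1 to 3, and differences in signal between replicates may include this difference in scale.

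The strongest IDR peaks at the members lay in noncoding sequence that was rich in A and T. The 201 bp around the summit are shown for the 4 members with the strongest peaks and for Tor, whose single peak lay in a promoter it shares with a neighbour. They are read 5′ to 3′ on the strand of the gene from the Release 6 (dm6) genome, and no annotated exon lies in them. The sequences are chr3R:11760944-11761144 (minus strand) for Lk6, chr3R:28326488-28326688 (minus strand) for larp, chr3R:16097715-16097915 (plus strand) for Akt, chr3R:14053505-14053705 (plus strand) for foxo and chr2L:13004177-13004377 (plus strand) for Tor. Capitals mark matches, on either strand, to a GAGA element, a forkhead core or a TATA box, spelled out further on.
Lk6: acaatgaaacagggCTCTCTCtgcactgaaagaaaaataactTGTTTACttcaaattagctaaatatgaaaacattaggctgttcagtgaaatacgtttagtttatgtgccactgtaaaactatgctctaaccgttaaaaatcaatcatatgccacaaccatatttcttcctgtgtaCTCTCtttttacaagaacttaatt
larp: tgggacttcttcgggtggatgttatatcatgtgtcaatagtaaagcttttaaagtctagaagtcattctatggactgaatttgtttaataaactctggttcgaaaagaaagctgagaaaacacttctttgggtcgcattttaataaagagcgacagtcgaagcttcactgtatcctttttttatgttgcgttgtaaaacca
Akt: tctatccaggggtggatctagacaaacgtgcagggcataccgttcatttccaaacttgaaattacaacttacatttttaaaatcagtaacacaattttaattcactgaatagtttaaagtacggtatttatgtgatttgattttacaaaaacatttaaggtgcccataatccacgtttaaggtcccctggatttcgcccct
foxo: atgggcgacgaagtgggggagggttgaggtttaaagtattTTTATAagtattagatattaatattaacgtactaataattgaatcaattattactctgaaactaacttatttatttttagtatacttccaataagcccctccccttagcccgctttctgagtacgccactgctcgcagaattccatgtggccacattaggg
Tor: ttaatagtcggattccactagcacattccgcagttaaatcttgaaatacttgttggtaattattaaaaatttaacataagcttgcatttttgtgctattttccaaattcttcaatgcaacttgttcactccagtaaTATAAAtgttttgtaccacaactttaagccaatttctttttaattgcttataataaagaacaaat

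The summits of the 30 peaks were never in a coding exon or a UTR of the member they were assigned to. Of these peaks, 20 lay in introns, 8 upstream of the gene and 2 downstream. Summits of 11 lay within 1000 bp of a start of the member itself, and for 8 of those the nearest start was an internal one, not the outermost. For 13 peaks the nearest annotated start belonged to another gene. Of these, 7 lay in an intron of the member, and 6 lay outside it and were assigned by distance alone. Summits of 17 of the 30, or 56.7%, lay within 1000 bp of a start of any gene, against 46.6% of all IDR peaks. The other counts of this paragraph are given without a share of all IDR peaks, so they describe these peaks alone.

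**Figure D1:**
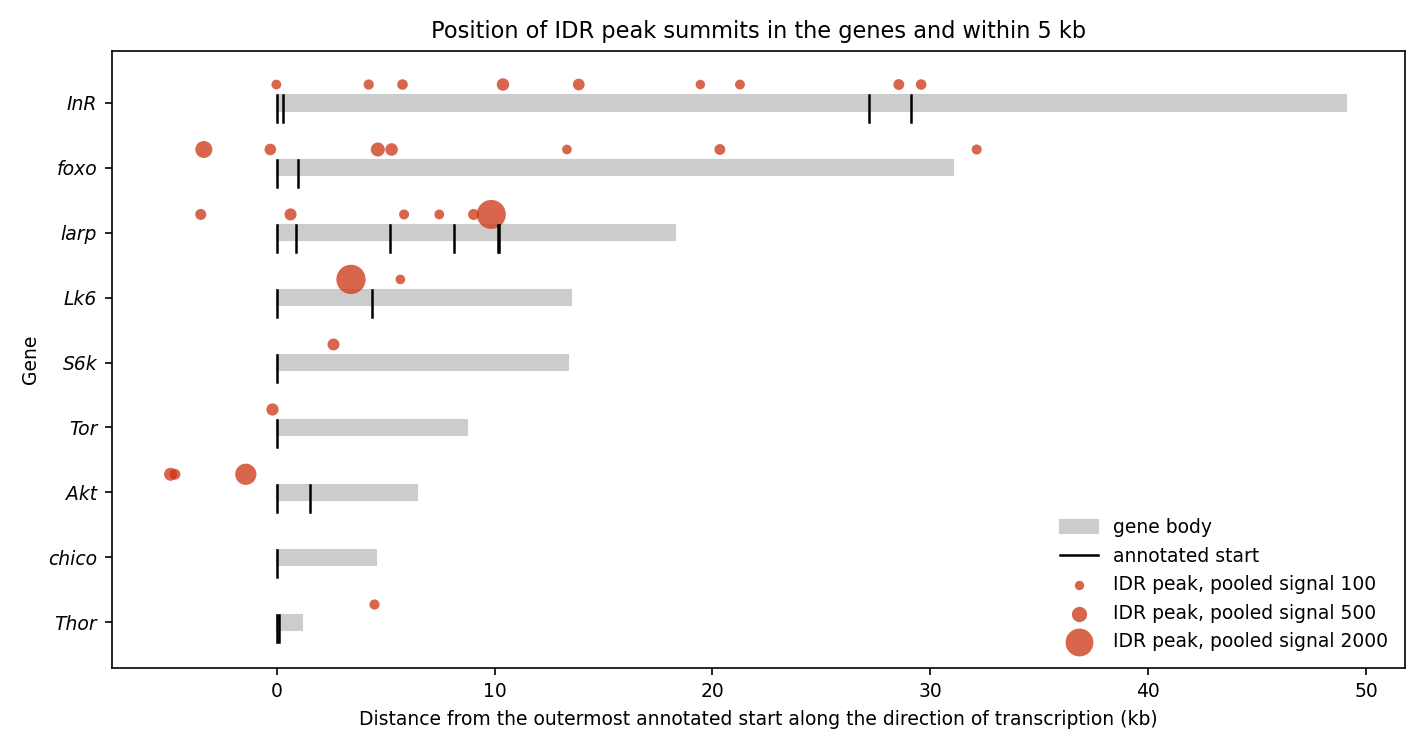
Position of the IDR peaks (red circles, area growing with pooled signal) along each gene, in kb from its outermost annotated start in the direction of transcription, with gene bodies in grey and annotated starts as black ticks. The large circles at Lk6 and larp stand inside the gene and just upstream of an internal start, those at Akt and foxo stand upstream of the gene, and chico has none.

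At the start of transcription, 4 of the 9 members had an IDR peak within 500 bp, namely larp, foxo, InR and Tor. Of all 13968 protein-coding genes, 17.0% did. Within the gene or 5 kb of it, 8 of the 9 had at least 1 IDR peak, all but chico. Of protein-coding genes 47.5% did, and of those at least as long as Thor, the shortest member, 52.4%. The share was 68.4% for genes at least as long as Tor and 70.3% for those at least as long as S6k. Genes were not matched on length or number of starts, of which larp had 6 and InR 4. Since the members were chosen with earlier results of these data known, these shares are a description. The strongest calls of the separate replicates gave 4, 4 and 6 members at a start in replicates 1, 2 and 3 (4.67 ± 1.15, SD, n = 3), with Lk6 and S6k added in replicate 3. They gave 8, 8 and 7 members within 5 kb, where Thor was missing in replicate 3.

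Lk6, the Mnk-type kinase gene (FBgn0017581; 3R, 11750931 to 11764457, minus strand), held the strongest peak of the group. This peak (11760864 to 11761229, rank 10 among IDR peaks) had a signal of 792, 666 and 771 in replicates 1, 2 and 3, a mean of 743 ± 67.4 (SD, n = 3). Its ranks were 10, 8 and 9, and its signal was 10.5, 13.9 and 11.0 times the median of the strongest calls. The replicates placed the summit within 14 bp of each other. It was thus among the top 10 calls in every replicate, with the lowest signal in replicate 2.

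The Lk6 summit, at 11761044, lay in the first intron (6991 bp) of the longer of the 2 annotated transcripts. It was 965 bp upstream of the start of the shorter transcript and 3413 bp downstream of the outermost start. Neither start had an IDR peak within 500 bp. In replicate 3 a call at the outermost start had rank 5607, and in replicate 1 the best call there had rank 11543. A weaker IDR peak at rank 5890, with 46.9, 29.1 and 52.6, lay 1300 bp downstream of the internal start and was among the strongest calls of all 3 replicates.

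larp, which encodes the La-related RNA-binding protein (FBgn0261618; 3R, 28318162 to 28336440, minus strand), had 6 IDR peaks. The strongest (28326365 to 28326796, rank 12) had a signal of 904, 548 and 741 in replicates 1, 2 and 3 (731 ± 178, SD, n = 3) and ranks of 7, 22 and 12. Its replicate summits lay within 10 bp of each other, and its range of signals overlapped that of the strongest Lk6 peak. The summit was 324 bp upstream of an internal start, from which 1 of 7 transcripts is annotated, with another transcript starting a little further on. It was 9852 bp from the outermost start, in an intron of the 5 transcripts that span it, so the larp promoter with the strong peak is an internal one.

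The second larp promoter peak, at rank 2052 (79.9, 78.7 and 103; 87.1 ± 13.5, SD, n = 3), was 260 bp upstream of the start of 2 further transcripts. Between these promoters lay intronic peaks at ranks 3036, 4995 and 5452, each 627 to 884 bp from an internal start. The outermost start had no IDR peak within 500 bp, and its best replicate calls had ranks of 7034, 8600 and 19521. The peak at rank 3106 lay upstream of larp, 3481 bp from it, but 156 bp upstream of Gfat2, which encodes an enzyme of hexosamine synthesis. The strongest larp peak stood apart within its gene, and the other 5 had mean signals of 39.7 to 87.1.

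Akt, the central kinase of the insulin arm (FBgn0010379; 3R, 16099228 to 16105670, plus strand), had 3 IDR peaks, none in the gene. The strongest (16097662 to 16097982, rank 102) had 418, 346 and 326 in replicates 1, 2 and 3 (363 ± 48.4, SD, n = 3), with ranks of 105, 62 and 169. Its replicate range lay below those of Lk6 and larp and above that of foxo. The summit was 1413 bp upstream of Akt, in an intron of Mhcl, a myosin heavy chain-like gene. It was nearer to a start of Mhcl, at 946 bp, than to one of Akt.

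The other Akt peaks, at ranks 1495 and 3423, overlapped each other and lay in an intron of Mhcl, 211 and 413 bp upstream of one of its starts and 4867 and 4665 bp upstream of Akt. They overlapped the same strongest replicate calls, with 176, 53.9 and 93.1 (108 ± 62.2, SD, n = 3). Matched by nearest summit instead, the peak at rank 3423 had a mean signal of 52.3. No start of Akt had a call within 500 bp in replicates 1 and 2, and replicate 3 had one at rank 23813. Which of these neighbours the peaks belong to was not tested.

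foxo, the transcription factor held back by Akt (FBgn0038197; 3R, 14056945 to 14087978, plus strand), had 7 IDR peaks, of which 4 lay in introns. The strongest (14053461 to 14053736, rank 398) was intergenic, 3340 bp upstream of the outermost start. It had 269, 165 and 231 in replicates 1, 2 and 3 (222 ± 52.2, SD, n = 3), and its ranks of 374, 449 and 415 were close together. The promoter peak, at rank 2500 and 290 bp upstream of the start used by 4 of 5 transcripts, was weaker. Its signal of 117, 33.6 and 84.7 (78.6 ± 42.2, SD, n = 3) varied more, and replicate 2 was the low one.

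Inside foxo, peaks at ranks 1073 and 1728 lay close together in an intron of 8433 bp. The first had 181, 55.3 and 193 (143 ± 76.2, SD, n = 3) and the second 144, 76.1 and 91.0 (104 ± 35.9). Replicate 2 was lowest at both on the deposited scale. Relative to the median of the strongest calls, replicate 3 was lowest at the second, with 1.91, 1.59 and 1.29 times the median in replicates 1 to 3. Peaks at ranks 3407 and 5863 lay in an intron of 12193 bp, 19367 and 12350 bp from the nearest foxo start. The peak at rank 3407 had 59.6, 58.8 and 57.1 (58.5 ± 1.31, SD, n = 3), or 0.790, 1.23 and 0.811 times the median of the strongest calls, so it was steady on the deposited scale alone. On that relative scale the peak at rank 398 varied least of the 30, with 3.56, 3.45 and 3.28 times the median. The last, at rank 4887, lay downstream of foxo and 445 bp upstream of Npc2b, a gene of the sterol-binding NPC2 family.

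InR, the insulin receptor gene (FBgn0283499; 3R, 21570248 to 21619321, minus strand), was the longest member at 49.1 kb and had the most IDR peaks, 9, all of modest signal. The strongest (21608715 to 21609150, rank 1775) had 113, 84.4 and 98.2 in replicates 1, 2 and 3 (98.6 ± 14.4, SD, n = 3) and lay 10103 bp from the nearest InR start, in the first intron of 2 transcripts. Its replicate summits were within 10 bp of each other. The peak at rank 2379 had 105, 17.2 and 111 (77.9 ± 52.7, SD, n = 3), and replicate 2 placed it only at rank 11588. It was the most variable of the 30 relative to its mean, both as deposited and after division by the median of the strongest calls.

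Near the InR starts the peaks differed in strength. The outermost start had a peak at rank 5554, with its summit 12 bp upstream and a signal of 46.6, 22.1 and 35.4 (34.7 ± 12.3, SD, n = 3). Only replicate 1 had it among its strongest 6469 calls. An internal start had a peak 447 bp downstream at rank 3836 and another 577 bp upstream at rank 3352, and both were among the strongest calls of every replicate. The peak at rank 4527 lay in the exon of lncRNA:CR44034, a noncoding RNA gene inside InR, 646 bp from its start.

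Tor, the growth kinase (FBgn0021796; 2L, 13004480 to 13013197, plus strand), had 1 IDR peak (13004059 to 13004494, rank 1931) and no other call within 5 kb in the replicate lists. The signal was 81.5, 90.9 and 80.5 in replicates 1, 2 and 3 (84.3 ± 5.77, SD, n = 3), and the ranks were 2916, 1299 and 2659. It was the single peak of the group with its highest signal in replicate 2. The summit lay 203 bp upstream of Tor and 170 bp upstream of Vha68-1, which encodes a subunit of the vacuolar proton pump, so the peak lay between divergent starts of both genes. The replicate summits lay within 9 bp of each other.

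S6k, the ribosomal protein S6 kinase gene (FBgn0283472; 3L, 5797549 to 5810931, minus strand), had 1 IDR peak (5808109 to 5808544, rank 2192). It lay in the first intron (2301 bp) of both transcripts, 2604 bp from their common start, with 125, 57.9 and 51.1 in replicates 1, 2 and 3 (78.1 ± 41.0, SD, n = 3). Replicate 1 was the high one. At the start itself replicate 3 had a call at rank 5224 and replicate 1 one at rank 14199, with no IDR peak.

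Thor, the 4E-BP translation inhibitor (FBgn0261560; 2L, 3478434 to 3479612, plus strand), had its only IDR peak at rank 4622, 4358 bp from its nearest start and in an intron of the neighbouring CG15414. It had 78.4, 34.1 and 31.0 in replicates 1, 2 and 3 (47.8 ± 26.5, SD, n = 3) and was not among the strongest 6469 calls of replicate 3. At the Thor promoter the pooled list had a call 167 bp upstream, at rank 7579 and a signal of 91.5, below the IDR set. The best calls within 500 bp of the starts had ranks of 7456, 6602 and 7286 in replicates 1, 2 and 3. Calls at the Thor start were thus present in every list and in none of them among the strongest 6469.

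chico, the receptor's adaptor (FBgn0024248; 2L, 10242512 to 10247078, minus strand), had no IDR peak and no pooled call within 5 kb. The lists of replicates 2 and 3 had no call there, and replicate 1 had 3, of which the best had rank 10841. The nearest IDR summit was 11170 bp away.

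**Figure D2:**
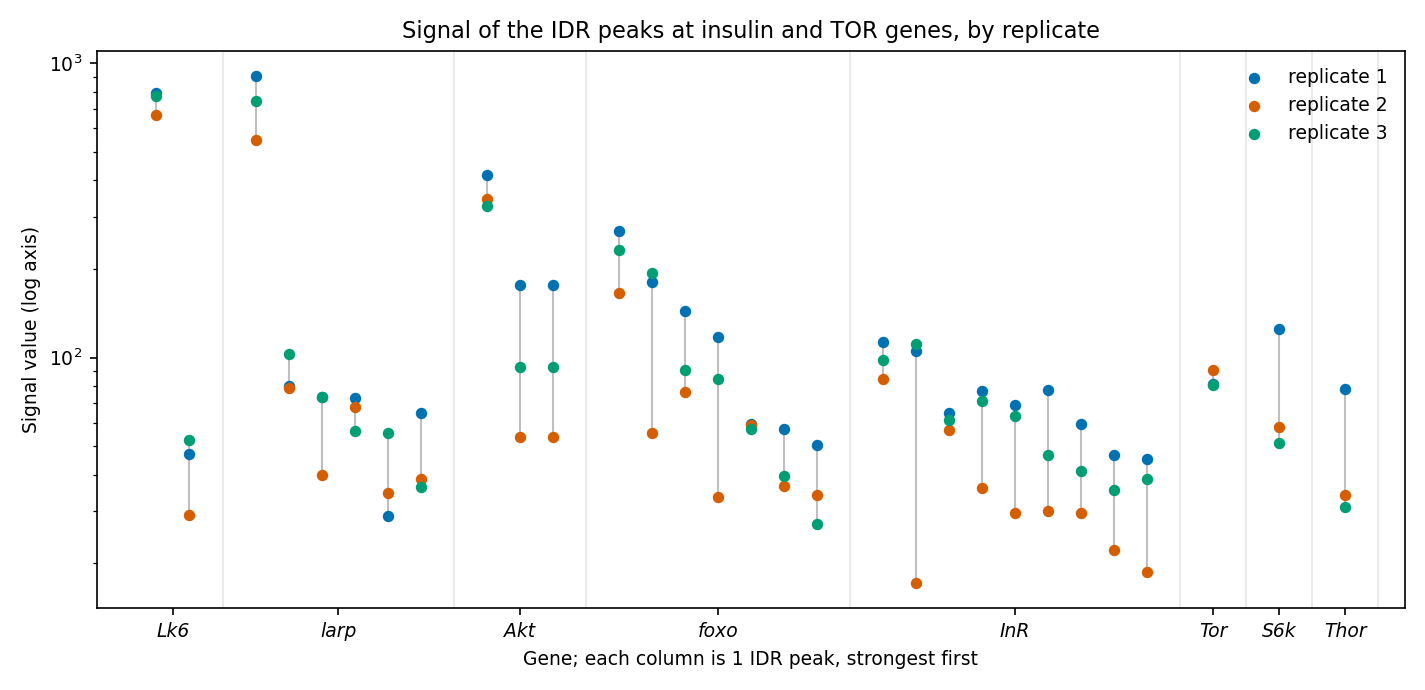
Signal value (log axis) of each of the 30 IDR peaks in replicates 1 to 3, with the genes ordered by their strongest peak and a grey line over the replicate range. The points of the first Lk6 peak (666 to 792) and the first larp peak (548 to 904) lie above those of all others, and replicate 2 is the lowest point for most peaks. The neighbouring columns of equal points at Akt are 2 overlapping peaks matched to the same replicate calls.

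Ordered by the strongest peak, the members ran Lk6, larp, Akt, foxo, InR, Tor, S6k and Thor. The replicate ranges of Lk6 and larp overlapped, as did those of neighbours in the order from InR to Thor. Those of larp and Akt, of Akt and foxo, and of foxo and InR did not. Within replicates, S6k was above Thor in all 3 although their ranges overlapped, and for Lk6 and larp, InR and Tor, and Tor and S6k the order differed between replicates. The members were chosen with these values known, so the order is a description. For 21 of the 30 peaks the lowest signal was in replicate 2 and for 23 the highest was in replicate 1. After division by the median of each replicate's strongest calls, replicate 2 was lowest at 12 peaks and highest at 10.

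As a set, the 30 peaks had a signal close to that of IDR peaks in general. Their median pooled signal was 189.8, against 189.4 for the other 6439. Of the 30 peaks, 22, or 73.3%, overlapped one of the strongest 6469 calls of every replicate, against 70.1% of all IDR peaks. They include the Akt peak of rank 3423 and the larp peak of rank 3036, whose calls of nearest summit were not all among the strongest. With a reciprocal overlap of 50% the count was 21, with no share of all IDR peaks at that setting. All 30 overlapped some call in each replicate list. Summits of 10, or 33.3%, lay within 500 bp of a start of any gene, against 35.2% of all IDR peaks. The distance between the outermost replicate summits had a median of 74 bp (quartiles 21.5 and 95.2) at the 30 peaks, against 49 bp (26 and 85) at the others.

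InR, foxo, larp and Akt had more IDR peaks than most protein-coding genes at least as long as each. InR had 9 IDR peaks in its window, or 1.52 per 10 kb, and 0.651% of all protein-coding genes had as many. Of the 327 protein-coding genes at least as long, 16.5% did, and their median was 3 peaks. foxo had 7, or 1.71 per 10 kb, matched by 20.4% of genes of its length or more, and larp had 6, or 2.12 per 10 kb, matched by 18.4%. The median of such genes was 2 peaks for both. Akt had 3, or 1.82 per 10 kb, none of them in the gene, matched by 27.4% of genes at least as long, whose median was 1. S6k had 0.428 per 10 kb and Tor 0.534.

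**Figure D3:**
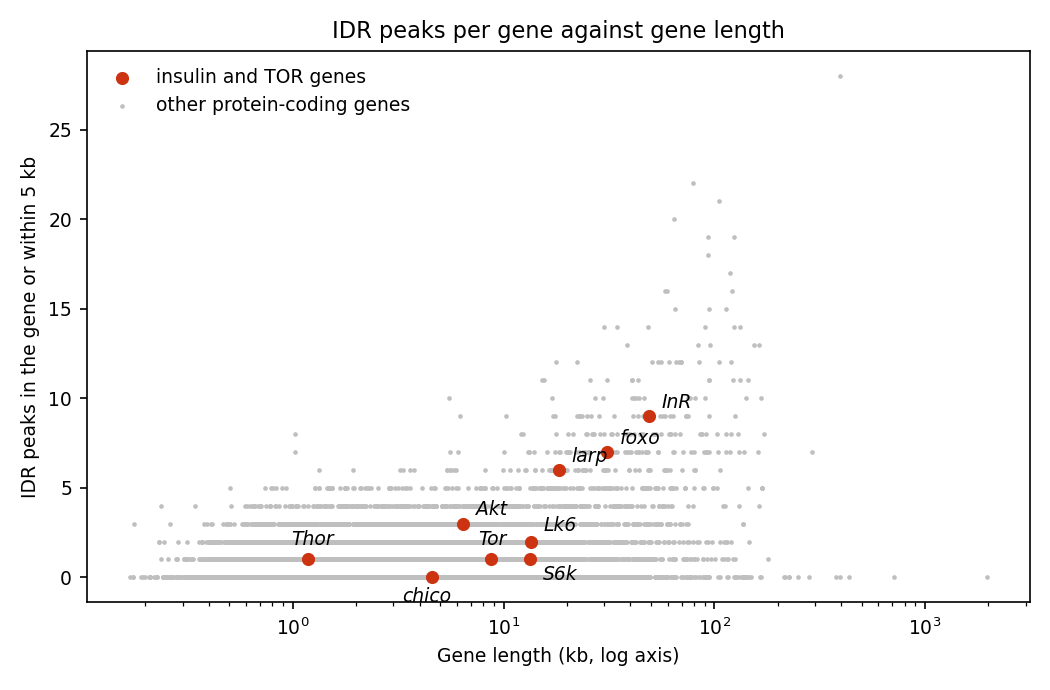
IDR peaks in the gene or within 5 kb against gene length (log axis) for the 9 members (red, named) and all other protein-coding genes (grey). InR, foxo and larp, with 9, 7 and 6 peaks, sit in the upper part of the range of other long genes, and chico sits at 0.

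Several calls lay close to a limit of the selection. The weakest member peak inside the IDR set was at InR, with rank 6426 and a pooled signal of 105.4. The strongest pooled calls just outside it were at Lk6 (rank 6923, signal 99.3) and downstream of Akt (rank 6954, signal 98.96). The upstream peak assigned to Akt at 4867 bp was the farthest from its gene inside the window. Outside the window, the nearest IDR summits were 7629 bp from S6k, 7989 bp from foxo and 8612 bp from InR.

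The windows of 201 bp around the 30 summits had a median GC content of 35.3% (range 25.9 to 50.7), against 33.3% at the other IDR summits and 42.3% at the 19276 starts of protein-coding genes. They were searched on both strands for short consensus sequences. The GAGA element GAGAG was in 9 of 30 windows, or 30.0%, against 21.9% of the other IDR windows and 25% of start windows. The TATA box sequence TATAAA was in 14, or 46.7%, against 39.1% and 26.9%. The forkhead core GTAAACA, the sequence that foxo and related factors bind, was in 2 windows, the strongest Lk6 peak and the peak near Gfat2, or 6.67% against 5.34% and 6.12%.

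The GATA core AGATAA was in 3 of 30 windows, against 14.8% of the other IDR windows and 10.6% of start windows. The E-box CACGTG, the sequence of Myc and its relatives, was in 1 window, at the InR peak of rank 3846 (3.33%, against 1.62% and 2.80%). The DRE core TATCGATA was in none, against 1.34% and 6.44%. In the windows printed above, Lk6 held GAGA elements and a forkhead core, foxo and Tor a TATA box, and larp and Akt none of these sequences. A match is a run of letters and not a bound site.

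The nearest counterparts of the Lk6 and larp peaks were single peaks at other loci. Likeness was measured as the greatest absolute difference in log2 signal over the 3 replicates. For Lk6 it was the IDR peak of rank 13 on X, with 783, 613 and 765, a difference of 0.12, which is the strongest peak in the windows of CG32772, CG4041 and CG42594. For larp it was the peak of rank 9 on 2L, with 914, 579 and 737, a difference of 0.079, shared by the windows of CG31668, CG33124 and COX7AL2.

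Beyond the 9 members, other genes of the pathway were taken from a list of 64 genes that includes them, grouped by role. Of the 55 that are not members, 18, or 32.7%, had an IDR peak at a start, beside the 17.0% of protein-coding genes already given. The strongest calls of the replicates gave 34.5%, 25.5% and 38.2% of them in replicates 1, 2 and 3 (32.7% ± 6.53, SD, n = 3), against 17.3%, 17.3% and 18.3% of protein-coding genes. The list was compiled with earlier results of these data known and was not tested, and genes were not matched on length or number of starts. The share of listed genes with a peak was thus above that of all protein-coding genes in each replicate, and least in replicate 2.

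Among regulators of TOR, members included, 4 of 21 (19.0%) had a start peak, close to the 17.0% of all protein-coding genes. The shares of the separate roles were not tested. The strongest was at Sesn, the stress-induced TOR inhibitor sestrin, at rank 46 with 526, 410 and 456 in replicates 1, 2 and 3 (464 ± 58.3, SD, n = 3). Its summit lay 263 bp upstream of Sesn and as near to CG46429. Wdr24, a subunit of the GATOR2 complex that relays amino acid supply, had rank 518 with 194, 234 and 174 (201 ± 30.4, SD, n = 3). chrb, a hypoxia-induced TOR inhibitor, had rank 3125, with 71.6 in replicate 1 and 113 in replicate 3 but no overlapping call in replicate 2. gig, the fly TSC2, had no start peak and 1 IDR peak within 5 kb.

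Of the transcription factors, 3 of 6 had a start peak, foxo among them, against 17.0% of all protein-coding genes. REPTOR, which drives genes repressed by TOR, had rank 87 with 415, 325 and 382 in replicates 1, 2 and 3 (374 ± 45.5, SD, n = 3), 175 bp upstream of its start. crc, the fly ATF4, had rank 2665 with 74.0, 71.0 and 72.9 (72.6 ± 1.49, SD, n = 3), and its summit was as near to CG46314. REPTOR was close to Sesn in strength, and its range of signals overlapped that of Sesn, although Sesn was higher in each replicate.

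Of the kinases and translation effectors, 3 of 8 (37.5%, against 17.0% of all protein-coding genes) had a start peak. Besides larp these were sgg, the fly GSK3, at rank 270 with 307, 203 and 268 (259 ± 52.5, SD, n = 3), and RpS6, the ribosomal protein that S6k phosphorylates, at rank 3832 (60.9 ± 7.01). The receptor and lipid kinase arm had 2 of 9 (22.2%, near the share of all protein-coding genes), InR and Pi3K21B. Pi3K21B, the adaptor subunit of the lipid kinase, had rank 973 with 121, 132 and 181 (145 ± 32.0, SD, n = 3). dock, an adaptor protein, had no IDR peak within 5 kb. eIF4E1, the cap-binding protein, and Atg1, the autophagy kinase, had no start peak but 1 and 5 IDR peaks within 5 kb.

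Of the ligands and secreted binding proteins, 3 of 10 (30.0%, against 17.0% of all protein-coding genes) had a start peak. These were Ilp6, a peptide made in the fat body, at rank 2989 (85.7, 34.9 and 71.9 in replicates 1, 2 and 3), Sdr, a secreted decoy of the receptor, at rank 3327 (70.7, 61.1 and 61.3) and Ilp7 at rank 5571 (37.6, 26.0 and 49.1). Ilp1, Ilp2, Ilp3 and Ilp4 had no IDR peak within 5 kb. The peaks of this group were all weaker than those at Sesn, REPTOR and sgg.

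Energy and amino acid inputs had 4 of 6 (66.7%, against 17.0% of all protein-coding genes). They were led by SNF4Agamma, a subunit of the energy sensor AMPK, at rank 940 (146 ± 44.1, SD, n = 3). Lkb1, alc and path had ranks 2566, 2564 and 4053. The summit counted for alc was nearer to other genes. Of the other modulators, 3 of 4 had a start peak, against the same 17.0%. These were melt at rank 1015 (141 ± 30.1, SD, n = 3), wdb at rank 2026 and 14-3-3epsilon at rank 5318. The summit counted for 14-3-3epsilon was nearer to CG7156. AMPKalpha and 14-3-3zeta had no IDR peak within 5 kb. alc was the most uneven of the 7 genes with a peak, with 151, 22.9 and 79.4 in replicates 1, 2 and 3.

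**Figure D4:**
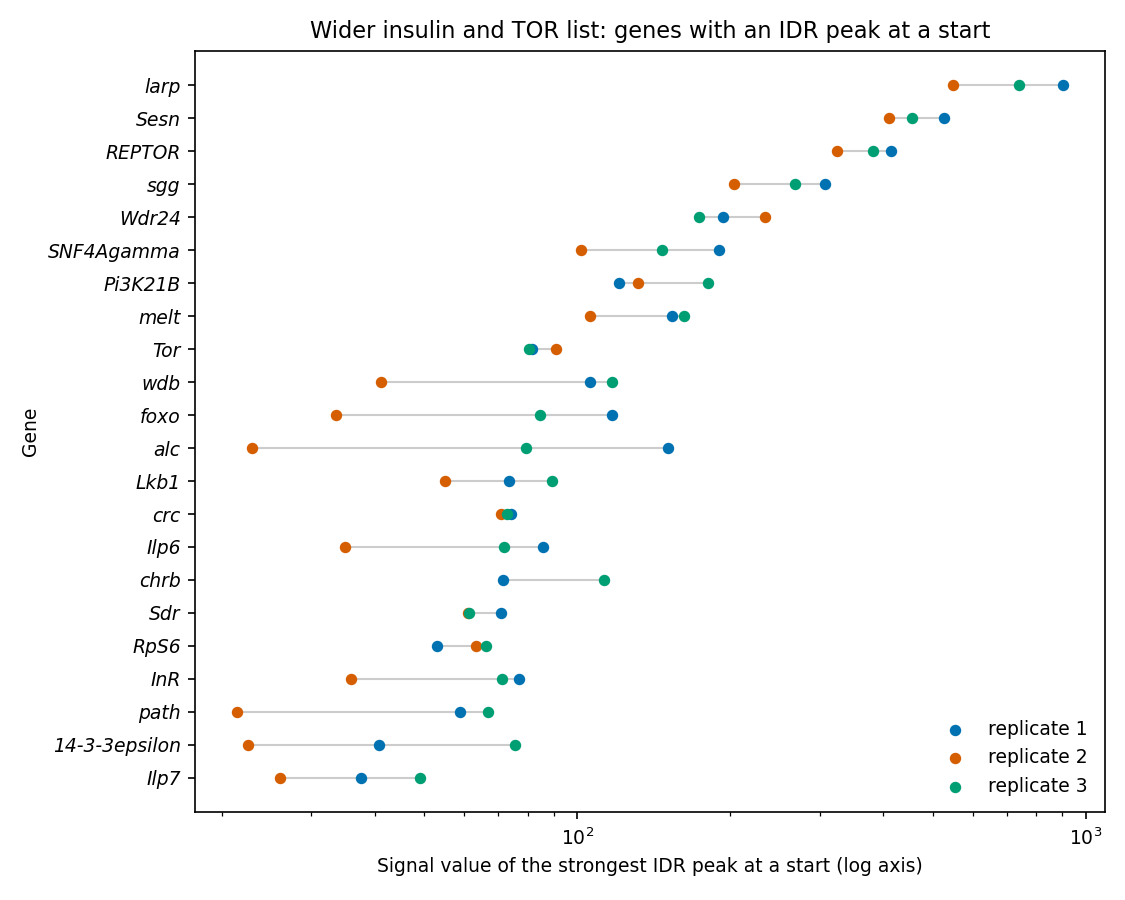
Signal value (log axis) in replicates 1 to 3 of the strongest IDR peak at a start, for the 22 genes of the wider list that had one, members included. larp, Sesn and REPTOR lie highest, and chrb has no point for replicate 2.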

How the data were processed

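The authors deposited peak lists of 3 replicates, of their pooled reads and of an IDR-thresholded set, on builds dm3 and dm6 per the labels. The dm6 lists were used, since no dm3 annotation was used here. The value analysed is the signal column deposited by the authors for each interval. The sources used here name no peak caller, cut-off, control correction, aligner or read depth. Positions were compared with the Release 6 sequence and the Ensembl release 115 annotation without transposable elements, in 1-based coordinates. A start is any annotated transcript start. Replicate calls were matched to an IDR peak by an overlap of at least 1 bp, taking the strongest. All steps were run in Python 3.11.15 with pandas 2.3.3, after assignment and motif search had recovered simulated positions. The members and lists were chosen with earlier results of these data known, so no test was made and the main counts stand beside those of all genes or peaks. All 9 members, their neighbours, up to 20 other listed genes with a start peak in order of signal, and 3 genes most like Lk6 and larp are named, with up to 10 listed genes without a start peak, taken by symbol. One listed gene is not reported here, for a reason unrelated to its values; it was removed after the analysis, which changed any count of listed genes by at most 1. Alternatives varied the windows, the starts, the strength of peaks, the overlap and the replicates used.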

Additional observations from a re-analysis of the deposited data

How the results depend on the processing

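The counts of members with a peak moved most with the window. The gene counts below are given without the share of all protein-coding genes at the same setting. They therefore cannot show whether the difference from that share changed. At 250 bp in place of 500 bp from a start, 2 members had an IDR peak, against 4, and 15 of the listed genes, against 22. With the gene body alone, 5 members had a peak, against 8. The stronger part of the IDR set, 3234 of 6469 peaks by definition, held 15 of the 30 member peaks and 3219 of the other 6439. That drop from 30 to 15 therefore follows from the setting. Among the strongest 3234 calls of every replicate were 11 of the 30, against 22 among the strongest 6469. The share of all IDR peaks among the strongest 3234 calls is not given. With the outermost start of each gene alone, 3 members and 17 listed genes had one, and larp was lost. Each replicate was also left out in turn by keeping the IDR peaks among the strongest calls of the others. In every case 4 members had a start peak, and 17 to 20 listed genes had one. Within 5 kb, 7 to 8 members had a peak, and 23 to 26 member peaks were among the strongest calls of the other replicates. The IDR set was made on all 3 replicates and was not called again, so these counts still depend on the replicate left out. Of 36 counts under alternatives, 32 stayed within 1.5 times the reported count. Matching calls by nearest summit took the same calls at most of the 30 peaks, so most mean signals could not move. The larp peak of rank 3036 went to 57.3, against 62.2, and the Akt peak of rank 3423 to 52.3, against 108. Both moved by less than 1 SD, but the Akt SD of 62.2 came from calls shared with the peak of rank 1495. Read depth is unknown, so what depth limits cannot be stated.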
